A study of Mus musculus with 6 samples.

Results

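The 10 genes described here encode the first steps of insulin signalling: the insulin receptor (Insr), its substrates Irs1 and Irs2, subunits of phosphoinositide 3-kinase (PI3K; Pik3r1, Pik3ca and Pik3cb), the kinases Akt1 and Akt2, the transcription factor Foxo1 and the receptor phosphatase Ptpn1. They were chosen by name as components of one pathway, and all 10 were found among the 54532 genes of the deposited count table. RNA was sequenced from 6 samples of wild-type 3T3 cells, a mouse fibroblast line labelled as adipocytes, of which 3 received 200 µM baicalin, a flavone glucuronide from Scutellaria roots, and 3 received DMSO, the solvent. The sources used here do not give the subline, the differentiation protocol, the duration of exposure or whether insulin was in the medium. They do not say that the samples of a group were separate cultures, so p-values measure only how these samples vary, and that variation may be technical. The study asked how baicalin lowers fat storage in these cells.

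Insulin binding switches on the tyrosine kinase of its receptor, which phosphorylates the IRS proteins. These recruit PI3K through its regulatory subunit, the lipid product brings AKT to the membrane, and AKT phosphorylates FOXO1 and so keeps it out of the nucleus. In fat cells the pathway drives glucose uptake and fat storage and restrains lipolysis. When insulin is low, nuclear FOXO1 raises transcription of Irs2 and Insr, a feedback known from liver and other tissues.

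The clearest contrast among the 10 genes lay between the paralogous substrates, with Irs1 lower and Irs2 higher in baicalin, so their promoters are shown first. RefSeq (assembly GRCm38.p6) gave promoter windows for 9 of the 10 genes, all but Insr. For each, the 250 bases before the annotated start were searched on both strands for the E-box CACGTG, bound by basic helix-loop-helix factors, for TGTTTTG, the core of the insulin response element that FOXO proteins bind in the Igfbp1 promoter, for the FOXO site GTAAACA, for the antioxidant response element TGACNNNGC and for GCGTG, the core of the xenobiotic response element. The Irs1 window is chr1:82291440-82291689 and the Irs2 window chr8:11008930-11009179, both on the minus strand and printed 5′ to 3′ along the gene, with CACGTG and TGTTTTG in capitals.
Irs1: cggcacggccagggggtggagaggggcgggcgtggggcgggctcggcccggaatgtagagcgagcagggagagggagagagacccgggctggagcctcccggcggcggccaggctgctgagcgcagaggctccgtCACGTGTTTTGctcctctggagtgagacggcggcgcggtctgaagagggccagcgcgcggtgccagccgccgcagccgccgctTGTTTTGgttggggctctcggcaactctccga
Irs2: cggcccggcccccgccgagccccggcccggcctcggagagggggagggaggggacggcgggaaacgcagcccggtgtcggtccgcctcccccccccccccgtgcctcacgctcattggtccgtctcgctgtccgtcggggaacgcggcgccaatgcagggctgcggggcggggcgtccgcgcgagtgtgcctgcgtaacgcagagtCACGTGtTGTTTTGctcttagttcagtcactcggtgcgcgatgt

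Both windows thus hold an E-box with an insulin response element core directly behind it. In Irs1 the E-box begins 115 bases before the start and overlaps the TGTTTTG that begins at 111 bases, and a further TGTTTTG begins 32 bases before the start. In Irs2 the E-box begins 44 bases before the start and TGTTTTG 37 bases before it. These distances are from the RefSeq starts, which lie upstream of the outer ends of the genes in GENCODE M21, the source of the gene coordinates given with each gene, by 23 bp for Irs1 and 471 bp for Irs2. CACGTG occurs in 6.02% of all 32851 promoter windows of this length and TGTTTTG in 5.56%. Windows with both, their first bases at most 10 apart, numbered 7, belonging to 7 genes, and these included Irs1, Irs2 and the paralog Irs4, which had no read in any library. That distance was set after the Irs1 and Irs2 sequences had been seen. GCGTG, common at 28.2% of windows, was in at least 1 window of 7 of the 9 genes. These 9 genes have 14 windows, and a gene with several has more chances of a match. The count of genes is therefore not comparable with the share of windows. TGACNNNGC, in 10.2% of windows, was on the opposite strand in Irs1 and Irs2, each time overlapping the first bases of the E-box, and in no window of the other 7 genes searched. CACGTG and TGTTTTG were in no other window of the 9 genes searched. GTAAACA, found in 3.17% of all windows, was in 1 of the 2 Akt1 windows and in no other. The letters are a description of the windows and not of binding, and the paired motif stands before a gene that fell and a gene that rose.

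Sequencing depth was similar in the groups, with total counts between 17598666 and 18326874 for baicalin libraries and between 16730594 and 17711950 for DMSO libraries. Fewer genes had a read in baicalin, with 19057, 19833 and 19589 genes against 21374, 21020 and 21303 in DMSO. Of 13728 genes with enough reads to test, 67.7% were called (adjusted p under 0.05 by edgeR's quasi-likelihood test, Benjamini-Hochberg method), 33.6% higher and 34.1% lower in baicalin. Scaling by library size alone, in place of trimmed means (TMM), moved the median over all genes to -0.13 on the log2 scale. The share of higher genes among those called was then 37.4%, against 49.7% with TMM, and the changes below are relative to TMM. Of 11 fat cell markers 7 could be tested and 6 of these were lower in baicalin, the summed level of the list being 803 to 818 CPM (counts scaled to the effective library size) in baicalin and 1804 to 1979 CPM in DMSO. Among the defining markers, Adipoq had 3, 3 and 1 reads in baicalin and 42, 31 and 17 in DMSO, Lep had 2 reads in all and the insulin-responsive glucose transporter gene Slc2a4 had 0, 1 and 0 reads in baicalin and 1, 1 and 3 in DMSO. Lpl, the lipoprotein lipase gene, had 491, 482 and 499 CPM in baicalin and 1456, 1515 and 1357 CPM in DMSO. Lpl was thus abundant and made up most of the fall in the sum, while Adipoq, Lep and Slc2a4 were at or near 0. It stayed below the sum in both groups, so other markers of the list, whose levels are not given here, had reads too. Fibroblast and preadipocyte markers summed to 18433 to 19406 CPM in baicalin and 19196 to 20145 CPM in DMSO. Macrophage markers summed to at most 6.17 CPM and endothelial markers to at most 0.658 CPM in any library. Mitochondrial transcripts took 1.26% to 1.36% of counts in baicalin and 1.59% to 1.87% in DMSO. The part of the marker shift and of this share in the results below was not tested, and in bulk RNA fewer cells of a type and less RNA per cell cannot be told apart.

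All 10 genes had enough reads to test, and 8 were called: Irs2, Ptpn1 and Pik3cb were higher in baicalin, and Irs1, Pik3r1, Pik3ca, Insr and Akt1 were lower. Akt2 and Foxo1 were not called. Against the 67.7% called among all genes, 8 of 10 is near the background, as are 7 of 10 genes without overlap between the groups in CPM against 70.2%. A change of at least 2-fold was found for 1 of the 10, Irs1, against 15.0% of all genes, and the median log2 fold change of the 10 was -0.12, beside 0.00 for all genes. The direction and the call of 4 genes, Irs1, Irs2, Pik3r1 and Ptpn1, were the same under all 17 alternative analyses, and the other 6 genes changed call or sign under at least 1.

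**Figure D1:**
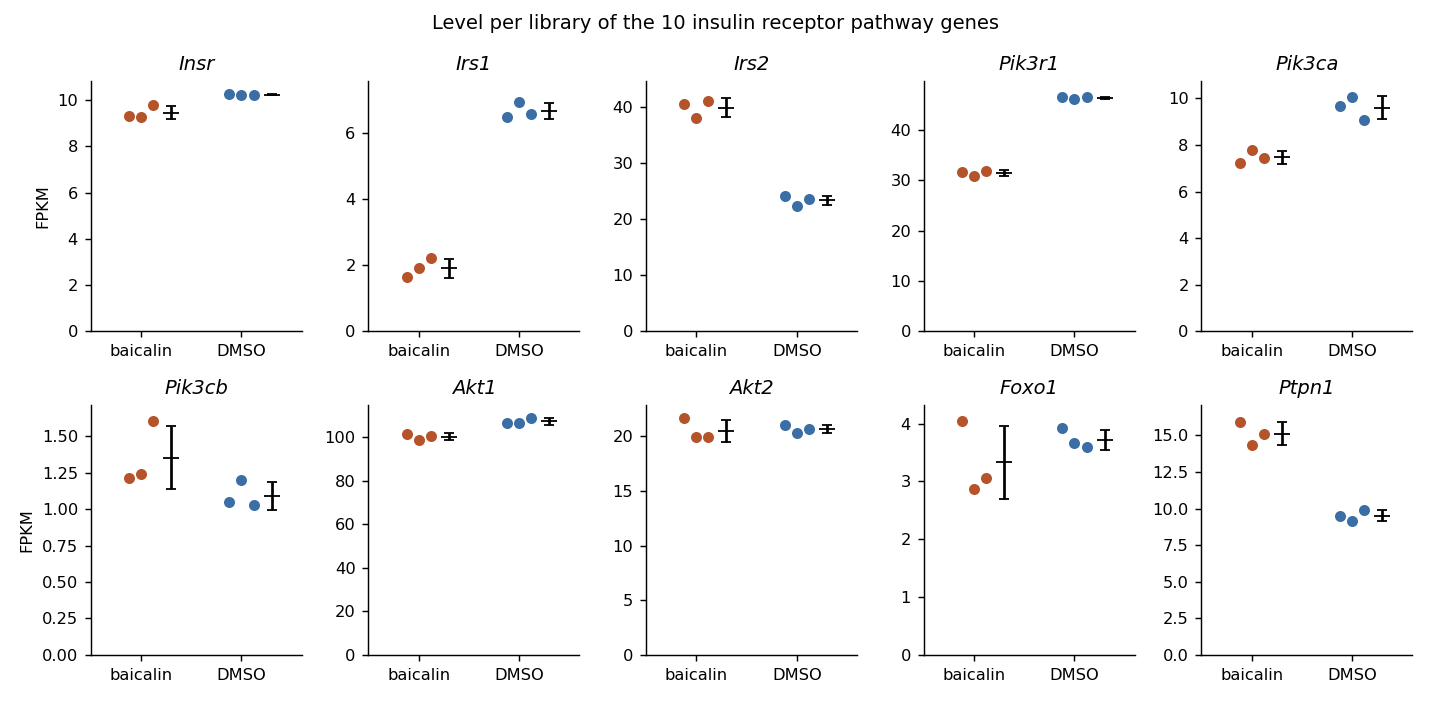
FPKM, the authors' read count scaled to gene length and a depth per library, of each of the 10 genes in every library. Each panel has 3 baicalin points (left) and 3 DMSO points (right), with the mean ± SD beside them. Each vertical axis starts at 0 and has its own scale. In baicalin the depth behind FPKM did not follow the total counts, as described with the processing. In FPKM the groups stand apart for 8 genes, most widely for Irs1 (1.92 in baicalin and 6.68 in DMSO on average), and overlap for Akt2 and Foxo1. For Pik3cb, which stands apart in FPKM but overlaps in CPM, the nearest points are 1.217 in baicalin and 1.201 in DMSO.

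Insr, the receptor itself (ENSMUSG00000005534, chromosome 8, 3122061 to 3279617), was slightly lower in baicalin. It had 9.32, 9.28 and 9.78 FPKM in baicalin and 10.3, 10.2 and 10.2 FPKM in DMSO. Every baicalin library lay below every DMSO library, and the log2 fold change was -0.13 (SE 0.04, adjusted p = 0.00661). The direction is not secure, because after trends with transcript length and GC content were removed from each library Insr was higher in baicalin (0.23, adjusted p = 1.78e-06). The call was also lost without baicalin replicate 2 (-0.11, adjusted p = 0.0551) and without a filter on low counts (-0.09, adjusted p = 0.114). Insr has the longest exons of the 10 genes, 13746 bp in sum.

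Irs1 (ENSMUSG00000055980, chromosome 1, 82233101 to 82291416), the substrate through which much of the insulin signal of muscle and fat passes, fell in baicalin. Reads numbered 242, 305 and 341 in baicalin and 1085, 1105 and 1092 in DMSO, or 1.63, 1.91 and 2.21 FPKM in baicalin and 6.49, 6.96 and 6.58 FPKM in DMSO. The highest baicalin library had less than the lowest DMSO library by a wide margin, and the baicalin libraries varied more among themselves than the DMSO libraries did. The log2 fold change was -1.81 (SE 0.08, adjusted p = 4.00e-24), which is 3.51-fold lower, and 3.07% of all tested genes were called with a fall at least as large. It ranged from -1.94 to -1.40 over the alternatives, the smallest change being that on the log2(FPKM + 1) scale, which understates changes of low genes.

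Irs2 (ENSMUSG00000038894, chromosome 8, 10984681 to 11008458), the substrate that dominates in liver and pancreatic beta cells and is raised by FOXO1 there, rose in baicalin. It had 40.4, 38.0 and 41.1 FPKM in baicalin and 23.996, 22.3 and 23.5 FPKM in DMSO. The groups lay well apart, with a log2 fold change of 0.76 (SE 0.04, adjusted p = 1.06e-22), and the value stayed between 0.63 and 0.80 over the alternatives. Exons of Irs2 overlap those of the opposite-strand gene 9530052E02Rik over 162 bp, but that gene had 7 reads in all libraries together against 20654 for Irs2.

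Irs2 was the more abundant transcript per length in every library. Irs1 made up 3.88%, 4.79% and 5.10% of the summed FPKM of both in baicalin and 21.3%, 23.8% and 21.8% in DMSO. The log2 ratio of Irs1 to Irs2 averaged -4.39 ± 0.22 in baicalin and -1.80 ± 0.11 in DMSO (SD, n = 3 each), a difference of -2.59 that needs no scaling between libraries. In an exact two-sided permutation test it had p = 0.1, the smallest that 3 against 3 can give, and 0.117 after adjustment over the 7 ratios tested. Another paralog, Irs3, had no read in any library, as Irs4 had none.

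Pik3r1 (ENSMUSG00000041417, chromosome 13, 101680563 to 101768217), the gene of the regulatory subunits p85α, p55α and p50α that dock PI3K on IRS proteins, fell in baicalin. It had 31.6, 30.8 and 31.9 FPKM in baicalin and 46.5, 46.2 and 46.5 FPKM in DMSO. The spread within each group was small beside the gap between them, with a log2 fold change of -0.58 (SE 0.04, adjusted p = 1.09e-19). Gene-level counts do not separate the isoforms. With length and GC trends removed the fall was smaller, at -0.27 (adjusted p = 1.99e-09).

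The catalytic subunits among the 10 genes moved in opposite directions. The call of Pik3ca was lost only with length and GC trends removed, and that of Pik3cb under many of the alternatives. Pik3ca (ENSMUSG00000027665, chromosome 3, 32397671 to 32468486) encodes p110α, the catalytic subunit through which insulin mainly acts, and had 7.21, 7.76 and 7.42 FPKM in baicalin and 9.66, 10.1 and 9.08 FPKM in DMSO. The groups did not overlap, and the log2 fold change was -0.38 (SE 0.05, adjusted p = 4.76e-09), but with length and GC trends removed it was 0.04 (adjusted p = 0.419). Its longest transcript has the lowest GC content of the 10 genes, 41.2%. Pik3cb (ENSMUSG00000032462, chromosome 9, 99036654 to 99140621), which encodes p110β, was the least abundant of the 10 per length, with 142, 156 and 195 reads in baicalin and 138, 150 and 134 in DMSO. Those groups overlapped, since the second DMSO library lay above the first baicalin library in reads, and in CPM stood between the lowest 2 baicalin libraries. Its log2 fold change of 0.30 (SE 0.13, adjusted p = 0.0407) lost its call without baicalin replicate 3 (0.17, adjusted p = 0.315), DMSO replicate 1 (0.27, adjusted p = 0.11) or DMSO replicate 3 (0.26, adjusted p = 0.119), and with DESeq2 (0.31, adjusted p = 0.143). The call was also lost with library size alone (0.17, adjusted p = 0.256) and limma-voom (0.29, adjusted p = 0.0509). The same held for limma on log2(FPKM + 1) (0.17, adjusted p = 0.141) and log2(FPKM + 0.1) (0.28, adjusted p = 0.148).

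Relative to each other, p110α transcripts exceeded p110β transcripts 5.93, 6.26 and 4.62 times per length in baicalin and 9.21, 8.37 and 8.84 times in DMSO. The ratio was lower in every baicalin library, by a log2 difference of -0.66. With length and GC trends removed the fold change was 0.04 for Pik3ca and 0.47 for Pik3cb, a narrower gap. Pik3r1 outnumbered Pik3ca and Pik3cb together 3.74, 3.43 and 3.53 times in baicalin and 4.34, 4.11 and 4.603 times in DMSO, again without overlap, for a log2 difference of -0.29. Each comparison had the smallest possible exact permutation p of 0.1 (0.117 adjusted over the 7 ratios). The Pik3r1 ratio leaves out other subunits. The regulatory subunit gene Pik3r2, named after its value was seen, was more abundant, averaging 75.6 FPKM in baicalin and 72.1 FPKM in DMSO. Pik3r1 averaged 31.4 and 46.4 FPKM. Pik3r2 was not called by edgeR (0.05, adjusted p = 0.21). The catalytic subunit gene Pik3cd averaged 1.22 FPKM in baicalin and 0.755 FPKM in DMSO.

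**Figure D2:**
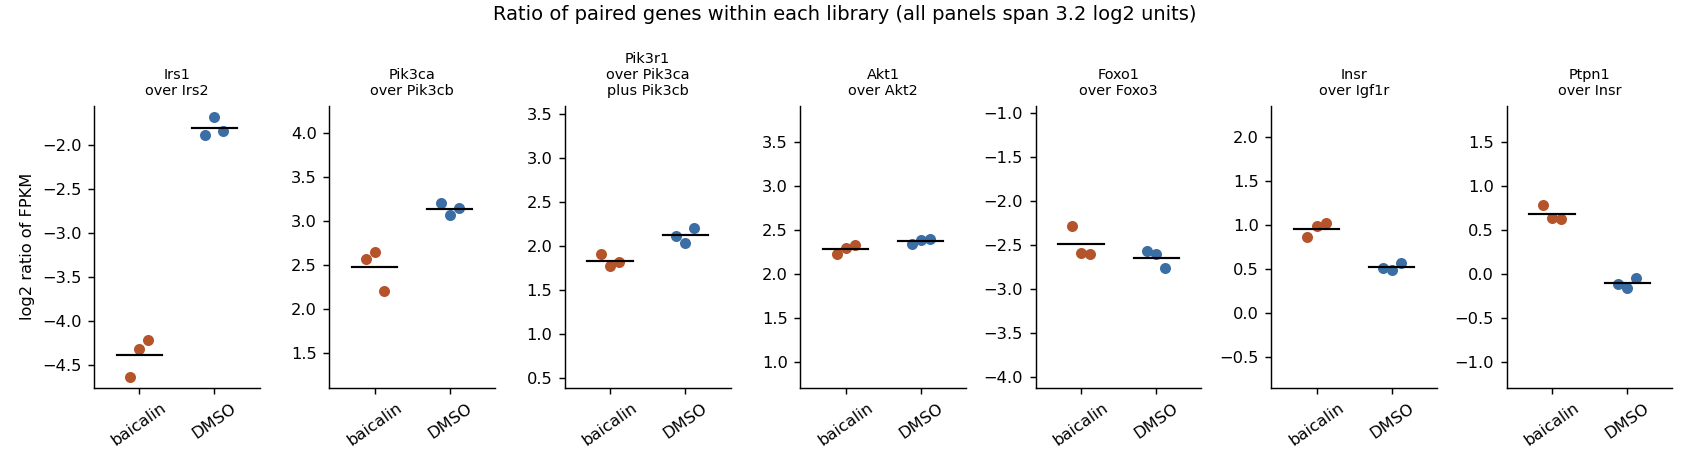
Log2 ratio of the FPKM values of paired genes within each library, 3 baicalin points (left) and 3 DMSO points (right) per panel with a line at each mean; all vertical axes span the same number of log2 units, so heights can be compared. The ratio of Irs1 to Irs2 differs most, with means of -4.39 in baicalin and -1.80 in DMSO, and the ratio of Foxo1 to Foxo3 is the one whose groups overlap.

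Akt1 (ENSMUSG00000001729, chromosome 12, 112653821 to 112674884), the broadly expressed AKT isoform, was the most abundant of the 10 per length and was slightly lower in baicalin. It had 102, 98.5 and 100.4 FPKM in baicalin and 106, 106 and 109 FPKM in DMSO. The groups did not overlap, and the log2 fold change was -0.11 (SE 0.04, adjusted p = 0.00628). The call was lost without the baicalin library 2 (-0.09, adjusted p = 0.0652), without the baicalin library 3 (-0.10, adjusted p = 0.0511) and without the count filter (-0.07, adjusted p = 0.134), while removal of length and GC trends gave a larger fall of -0.28. Akt2 (ENSMUSG00000004056, chromosome 7, 27591552 to 27640826), the isoform tied to glucose uptake in fat and muscle, had 21.7, 20.0 and 19.9 FPKM in baicalin and 21.02, 20.3 and 20.6 FPKM in DMSO. Its groups overlapped and it was not called (-0.02, SE 0.04, adjusted p = 0.639), although scaling by library size alone called it lower (-0.15, adjusted p = 0.00121). Akt1 exceeded Akt2 4.68, 4.93 and 5.04 times in baicalin and 5.06, 5.23 and 5.27 times in DMSO. The log2 difference of that ratio was small, -0.09, although its groups did not overlap (exact permutation p = 0.1, adjusted 0.117). The gap was wider with the trends removed, with Akt1 at -0.28 and Akt2 at -0.04.

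Foxo1 (ENSMUSG00000044167, chromosome 3, 52268336 to 52353221), the factor that AKT holds out of the nucleus, had 4.05, 2.87 and 3.07 FPKM in baicalin and 3.92, 3.66 and 3.59 FPKM in DMSO. The first baicalin library was the highest of all 6 and the other two were the lowest, so the groups overlapped. Foxo1 was not called (-0.18, SE 0.10, adjusted p = 0.104). Without baicalin replicate 1 it was called lower (-0.33, adjusted p = 0.00017), as it was with library-size scaling (-0.31, adjusted p = 0.00357), and with length and GC trends removed it stood at -0.04. The ratio of Foxo1 to the related and more abundant Foxo3 averaged -2.49 ± 0.18 in baicalin and -2.65 ± 0.10 in DMSO on the log2 scale (SD, n = 3 each) and overlapped between the groups (exact permutation p = 0.5). Transcript levels say nothing of the phosphorylation that controls FOXO1 and AKT.

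Ptpn1 (ENSMUSG00000027540, chromosome 2, 167932057 to 167979385), which encodes PTP1B, the phosphatase that removes phosphate from the active insulin receptor, rose in baicalin. It had 15.9, 14.4 and 15.1 FPKM in baicalin and 9.47, 9.14 and 9.89 FPKM in DMSO. All baicalin libraries lay above all DMSO libraries, with a log2 fold change of 0.65 (SE 0.05, adjusted p = 2.94e-16) that stayed between 0.53 and 0.70 over the alternatives. Set against its substrate, Ptpn1 stood at 1.71, 1.55 and 1.54 times the FPKM of Insr in baicalin and at 0.923, 0.892 and 0.967 times in DMSO, so the phosphatase transcript was above that of the receptor in every baicalin library and below it in every DMSO library. The log2 difference of this ratio was 0.79 (exact permutation p = 0.1, adjusted 0.117). It rests in part on Insr: with length and GC trends removed Ptpn1 was at 0.55 and Insr at 0.23, so that the gap was smaller by more than 1.5 times. Insr in turn stood at 1.82, 1.98 and 2.02 times Igf1r, the related receptor of insulin-like growth factors, in baicalin and at 1.42, 1.397 and 1.48 times in DMSO, a log2 difference of 0.44 with the same p, and the trend-free fold changes were 0.23 for Insr and -0.20 for Igf1r.

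**Figure D3:**
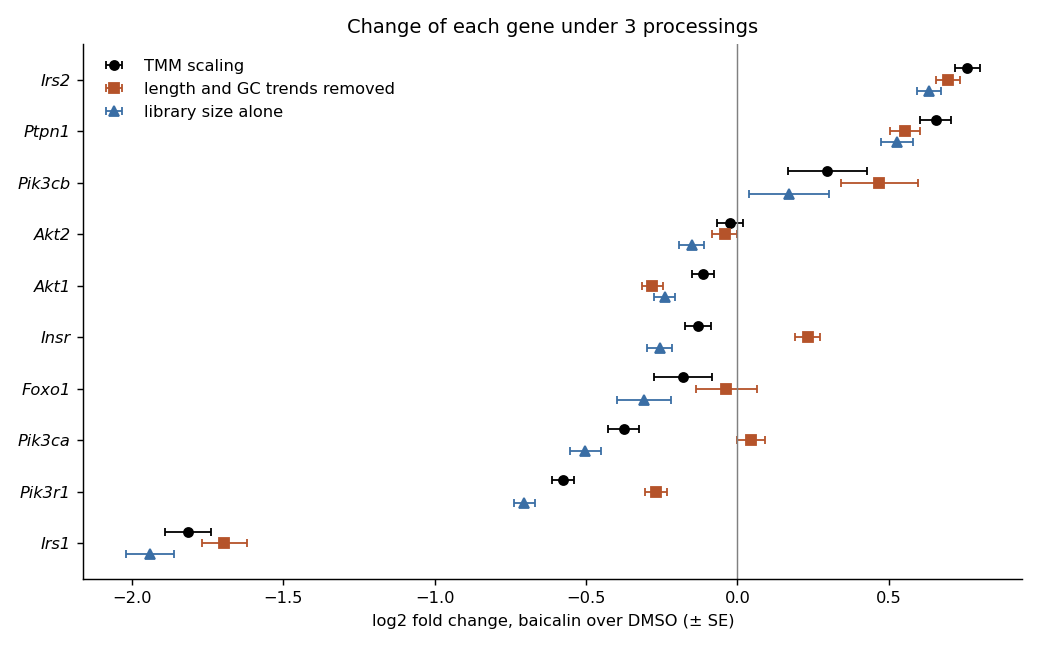
Log2 fold change of baicalin over DMSO (horizontal axis, ± SE) for the 10 genes under the TMM scaling, after removal of length and GC trends, and with library size alone. Irs1, Pik3r1, Irs2 and Ptpn1 keep their side of 0 in all 3, while Insr is at -0.13, 0.23 and -0.26 and Pik3ca at -0.38, 0.04 and -0.50.

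The order of levels per length changed at several places. In baicalin it ran Akt1, Irs2, Pik3r1, Akt2, Ptpn1, Insr, Pik3ca, Foxo1, Irs1 and Pik3cb, and the ranges of neighbours did not overlap. In DMSO it ran Akt1, Pik3r1, Irs2, Akt2, Insr, Pik3ca, Ptpn1, Irs1, Foxo1 and Pik3cb, and of these neighbours only Pik3ca and Ptpn1 overlapped. Irs2 thus stood above Pik3r1 in baicalin and below it in DMSO, Ptpn1 above Insr and Pik3ca in baicalin and at or below them in DMSO, and Irs1 below Foxo1 in baicalin and above it in DMSO.

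Length and GC content are given because they moved with the fold change across the transcriptome. The median log2 fold change over 5 equal groups of genes was 0.16 in the group with the shortest exons (at most 2072 bp) and -0.23 in that with the longest (7256 bp and more). By GC content of the longest transcript it was -0.34 in the lowest of 5 groups (at most 43.6%) and 0.19 in the highest (at least 55.3%). The direction and call of 4 genes were the same under every alternative analysis of these libraries. Of these, Irs2 (6323 bp, 56.6% GC) and Ptpn1 (5533 bp, 55.6%) rose, and Irs1 (9144 bp, 50.3%) and Pik3r1 (10079 bp, 44.9%) fell. With both trends removed Irs1 was at -1.69, Irs2 at 0.70 and Ptpn1 at 0.55. Pik3r1 moved further, from -0.58 to -0.27.

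**Figure D4:**
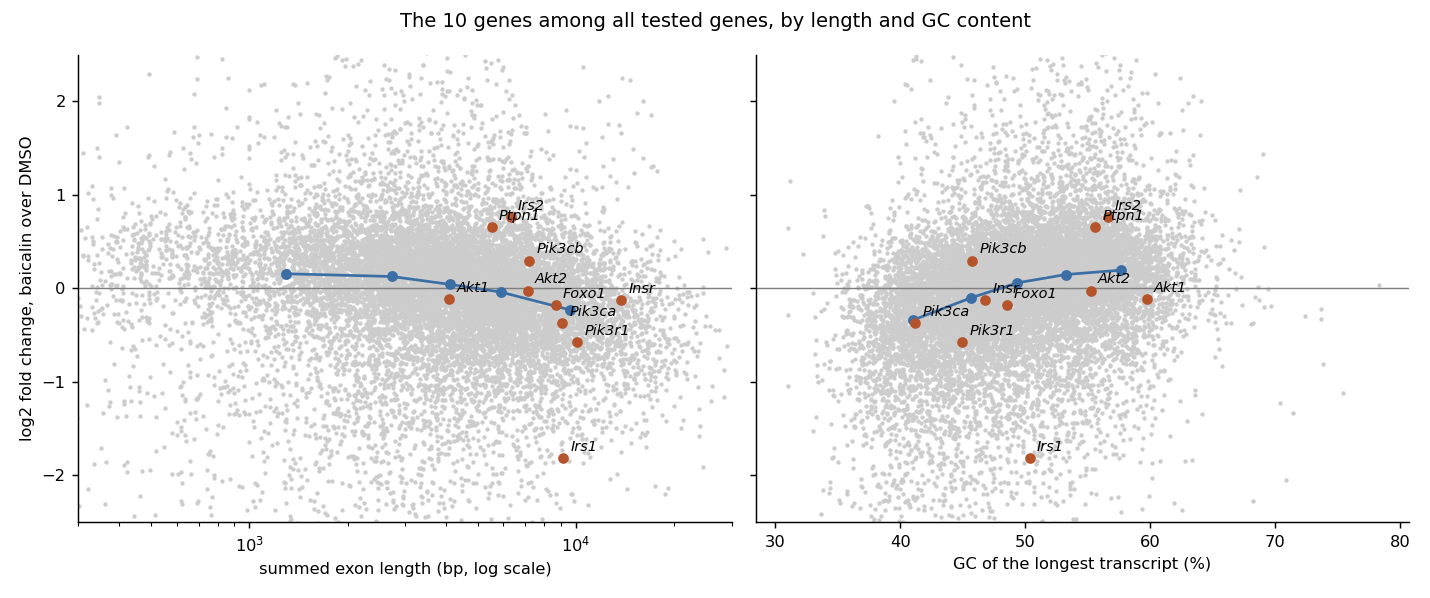
Log2 fold change of baicalin over DMSO for all tested genes (grey) and the 10 genes (orange, named), against summed exon length in bp on a log axis and against GC content in percent; blue points join the medians of 5 equal groups of genes, and genes beyond 2.5 log2 units or outside the horizontal range are not drawn. The medians fall with length, to -0.23, and rise with GC content, from -0.34 to 0.19, and Irs1 lies far below them.

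By the distance between centred log2 CPM profiles over the 6 libraries, the genes nearest to Irs1 were Gm12940 and Synm (root mean square distance 0.07 and 0.08 log2 units), and those nearest to Irs2 were Mocs1 and Tbcd (0.03 each). Nearest to Pik3r1 were E130311K13Rik (0.01) and the collagen gene Col1a2 (0.02), and nearest to Ptpn1 were Lynx1 (0.02) and the translocon gene Sec61a1 (0.03). With 2 groups of 3 libraries such likeness reflects chiefly the size and direction of the treatment difference.

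The rest of the pathway was mixed in direction. Over 7 lists with 126 genes, 125 were in the table and 112 had enough reads, and of the 102 of these outside the 10 genes 38 were higher, 47 lower and 17 not called. The share called was 83.3%, beside 67.7% of all genes. These shares were not matched for read level, on which calls depend, so they do not show that the pathway changed more than other genes. Their median log2 fold change was -0.09, and 0.02 with length and GC trends removed. Each adjusted p in the next 3 paragraphs is from the edgeR test over all genes, refitted with length and GC trends removed where that is said. The counts of higher and lower genes stand beside 33.6% higher and 34.1% lower among all genes.

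Among receptors and adaptors, including Insr, Irs1 and Irs2, 9 of 14 tested genes were lower and 4 higher (median -0.27). With length and GC trends removed 5 were lower and 4 higher, and the median was 0.02. Igf1r had 84.0, 77.8 and 79.9 CPM in baicalin and 120, 122 and 116 CPM in DMSO (-0.57, and -0.20 with the trends removed), and Gab1, a docking protein that like IRS recruits PI3K, fell (-0.93). The adaptors Sh2b2 (0.46) and Grb2 (0.33) rose, though the call of Grb2 was lost with the trends removed (0.11, adjusted p = 0.0538). In the list of class I PI3K and its lipid phosphatases 5 of 13 were higher and 7 lower (median -0.38, and -0.10 with the trends removed), and library size alone left 3 higher. Pik3ip1, an inhibitor of PI3K, fell (-1.46) and the phosphatase gene Inpp4a was lower (-0.63). On the other side, Pik3r5, a regulatory subunit of the PI3K of immune cells, had 33.5, 30.3 and 32.6 CPM in baicalin and 9.97, 11.2 and 10.9 CPM in DMSO (1.59), while its catalytic partner Pik3cg had too few reads to test. Pik3r3 (0.62) and Pik3cd (0.68) were higher as well.

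For AKT and kinases below PI3K, 11 of 23 genes were lower and 8 higher (median -0.07). Only 7 were lower with the trends removed, and only 3 higher with library size alone. Rictor, a subunit of the mTOR complex that phosphorylates AKT, fell (-0.90), whereas Rptor, its counterpart in the other mTOR complex, rose (0.27). With the trends removed Rictor was at -0.32 and Rptor at 0.46, both still called. Sgk1 (-0.68) and the AKT phosphatase gene Phlpp1 (-0.66) fell, and Eif4ebp1, a translation repressor that mTOR inactivates, rose (1.13), as did the ribosomal protein gene Rps6 (0.42, and 0.12 with the trends removed). Among negative regulators of the receptor and IRS, Ptpn1 included, 10 of 22 were higher and 6 lower (median 0.05). This balance depended on the processing, with 5 higher and 10 lower under library size alone and 3 lower with the trends removed. The larger rises were those of Trib3, a pseudokinase that binds AKT (2.17), and Socs3, which blocks IRS binding and marks it for degradation (1.92). Socs6 (-0.50) and the kinase genes Mapk8 (-0.47) and Prkce (-0.42) fell, but Socs6 and Mapk8 stood at 0.07 and 0.10 and were not called with the trends removed.

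Of the 4 FOXO genes, Foxo3 was lower (-0.34) and Foxo6, named after its value was seen and with under 5 CPM in every library, was higher (0.44, adjusted p = 0.0429, a call lost without baicalin replicate 1, DMSO replicate 1 or DMSO replicate 2), and Foxo1 and Foxo4 were not called. Known FOXO targets, Insr and Irs2 among them, were split as 11 higher and 11 lower of 24 tested (median 0.09). Sod2 (1.73), Bnip3 (1.22) and Eif4ebp1 (1.13) rose and Ppargc1a (-1.51), the ubiquitin ligase gene Fbxo32 (-1.16) and Cat (-1.16) fell. In the list of GLUT4 vesicle traffic 4 of 16 were higher and 9 lower (median -0.13, and 0.00 with the trends removed). Slc2a1, which encodes the basal glucose transporter GLUT1, had 314, 317 and 315 CPM in baicalin and 130, 131 and 147 CPM in DMSO (1.21), and Aspscr1, whose product TUG tethers GLUT4 vesicles, rose (0.88), as did Rab8a (0.29). Sort1, the sortilin gene needed to form those vesicles, had 28.6, 25.6 and 24.8 CPM in baicalin and 83.0, 83.4 and 80.8 CPM in DMSO (-1.65). Stxbp3 (-0.46, and -0.19 with the trends removed) was lower too, and Lnpep (-0.60) was lower except with the trends removed, when it stood at 0.04.

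**Figure D5:**
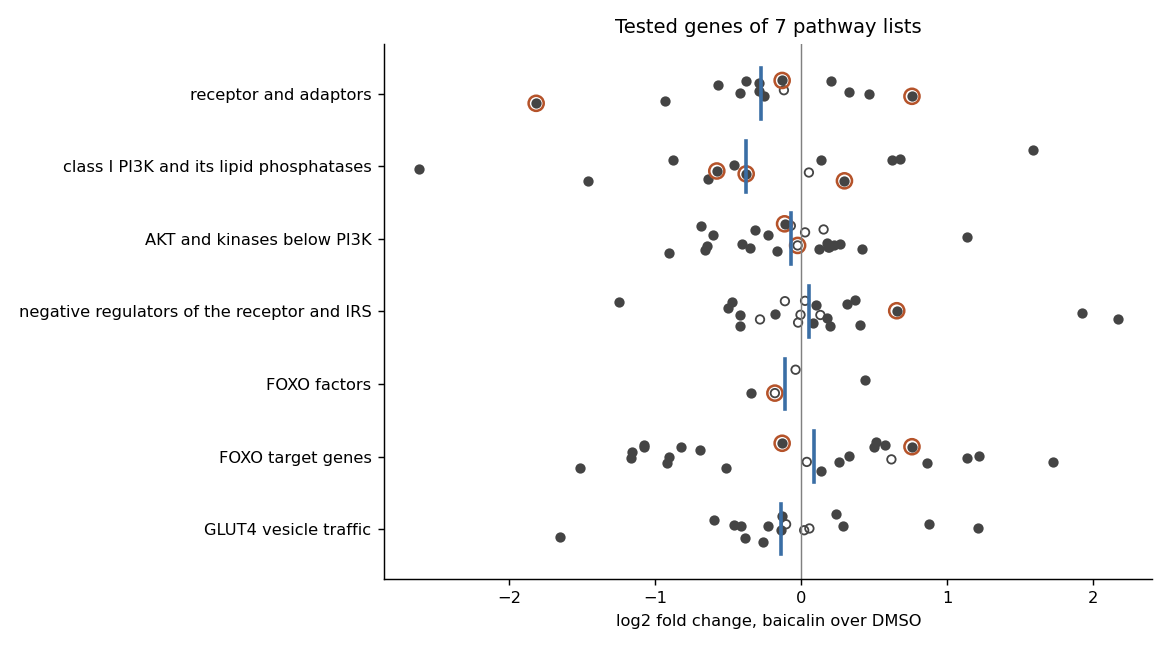
Log2 fold change of baicalin over DMSO for the tested genes of the 7 pathway lists, 1 row per list; filled points were called, open points were not, orange rings mark the 10 genes and blue bars the list medians. Each list has called genes on both sides of 0, and the medians lie between -0.38 and 0.09.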

How the data were processed

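Per the labels' protocols, poly-A RNA from 3 µg of input went into NEBNext Ultra libraries. The deposited table holds read counts per gene, for which the series design text names featureCounts 1.5.0-p3 and the submitters' processing notes name mm10. The sources used here do not name the aligner, the annotation or the strand setting. The authors derived FPKM from these counts and gene lengths, as the design text says. For all 10 genes these lengths match the summed exons of GENCODE M21 (same assembly as mm10) within 1%, so coordinates come from there. The depth behind FPKM, relative to DMSO replicate 1, was 0.888, 0.956 and 0.924 in baicalin replicates 1 to 3. Their total counts were 0.994, 1.035 and 1.012 on that scale. In DMSO replicates 2 and 3 the depth was 0.950 and 0.993, near the totals of 0.945 and 0.988. FPKM thus sets baicalin higher against DMSO than total counts do, and the cause was not tested.

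The test was that of edgeR 4.0.16 in R 4.3.3, using filterByExpr, TMM and robust quasi-likelihood fits, treatment as the only term and Benjamini-Hochberg adjustment over all genes tested. The script was tested on simulated data. Ratios are FPKM ratios within a library without pseudocount, tested by exact two-sided permutation (scipy 1.17.1). CPM values use TMM factors. A count of 0 allows up to 0.179 CPM by the raw library total, without TMM factors and for counting error only. Replicates differed by more than sampling noise (chi-square per degree of freedom 2.71 to 4.13). Alternatives were RLE factors, library size alone, DESeq2 1.42.0, limma-voom (limma 3.58.1), other count filters, a replicate block, limma on log2(FPKM + 1) and log2(FPKM + 0.1), removal of lowess trends (span 0.3) on exon length and GC, and leaving out each library.

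Genes named besides the 10 are up to 3 per list and direction with the largest called changes (mean 5 CPM or more, groups apart), the 2 nearest genes of each member, the partners of the 7 ratios and marker genes. Some genes, such as Pik3r2 and Foxo6, were named outside this rule. The members and lists were chosen with earlier results of these data known. The name of 1 of the 126 list genes, Stx4, was not matched. One gene that this rule names is not reported here.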

Additional observations from a re-analysis of the deposited data

How the results depend on the processing

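Among the 10 genes 5 were called lower, against 3 called lower without a count filter and 3 with length and GC trends removed, and leaving out 1 library at a time gave 3 to 6 lower and 2 to 3 higher. With these trends removed Insr reversed to 0.23 and Pik3ca to 0.044, and among other named genes Socs6 to 0.071, Mapk8 to 0.10 and Lnpep to 0.039. The lower counts then were 5 for receptors and adaptors, 7 for AKT and kinases below PI3K, 3 for negative regulators and 2 for FOXO genes. The cause was not tested. With library size alone, which lowers every fold change alike, 3 PI3K genes, 3 AKT-list genes and 5 negative regulators were higher, and 10 negative regulators and 3 FOXO genes lower. The number of FOXO genes called higher was 0 with library size alone, with trends removed and with DESeq2 (0 at an unadjusted p under 0.05 in each, and 1 by limma-voom). Leaving out single libraries gave 0 to 1 FOXO genes higher and 1 to 2 lower. All other counts of genes were within 1.5 times under every alternative, with 4424 to 4583 genes higher and 4397 to 4563 lower on leaving out a library. The difference of the log2 ratio of Irs1 to Irs2 then ran from -2.67 to -2.46, that of Pik3ca to Pik3cb from -0.75 to -0.53, and that of Foxo1 to Foxo3 from 0.05 to 0.21. No ratio changed sign.

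Same-numbered libraries are not paired by the labels, and their deviations from the group means correlated at -0.02 to 0.09, against -0.10 to 0.04 for other pairs. With the replicate number as a block 4660 genes were higher and 4731 lower, Foxo1 was called lower (-0.19, adjusted p = 0.0212), so that 6 of the 10 genes and 2 FOXO genes were lower, and no other of the 10 changed its call. At 134 to 195 reads per library, depth limits what can be said of Pik3cb.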
